A study of Mus musculus with 24 samples.

Results

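A set of 47 genes of the Hox, Meis, Pbx and Pknox families was followed in haematopoietic stem cells of young and old mice. They were chosen by name from the 18762 genes of the table of normalized read counts: every gene named Hoxa, Hoxb, Hoxc or Hoxd with a paralogue number, and every gene named Meis, Pbx or Pknox with a number. The set holds 11 *Hoxa* genes (chromosome 6), 10 *Hoxb* genes (chromosome 11), 9 *Hoxc* genes (chromosome 15), 8 *Hoxd* genes (chromosome 2), 3 *Meis*, 4 *Pbx* and 2 *Pknox* genes. RNA-seq had been made from sorted LSK-SLAM cells of each mouse, a bone marrow gate (Lin- Sca-1+ c-Kit+ CD48- CD150+) that enriches long-term stem cells. The 5 young mice were labelled 4 to 5 months old and the 7 old mice 20 to 22 months. The text of the study gives other ages for this experiment, and the labels are used here. All were wild-type C57BL/6 animals with no treatment named, so the comparison asks what differs in the stem cell gate with age. Each mouse carries a label letter, A (2 young and 4 old mice) or B (3 young and 3 old mice), whose meaning is not given in the sources used here.

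Hox genes encode homeodomain transcription factors that lie in 4 clusters, and genes at the same place in different clusters are called paralogues and share a number. In the embryo they set position along the body axis, and in bone marrow genes of the *Hoxa* and *Hoxb* clusters are best known for stem cell self-renewal and for leukaemia. Hox proteins bind DNA together with TALE homeodomain cofactors: Pbx proteins pair with them directly, and Meis and Pknox proteins bind Pbx or Hox proteins and strengthen the complex.

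How alike the paralogues are was read from the homeobox, the 180 bases that encode the DNA-binding homeodomain, in the GENCODE vM21 annotation of GRCm38 (mm10). Across the 39 pairs of paralogues at one position, identity ran from 67.2% to 93.9%, with *Hoxa3* and *Hoxb3* the most alike, and the longest identical run was 47 bases. No stretch of 50 bases in the transcripts of *Hoxa5*, *Hoxb8* or *Pbx3* occurred in another annotated gene, and in *Hoxa9* 0.646% of such stretches did (*Mir196b*, on the same strand). Of the exon bases of *Hoxb3*, 52.9% are shared with the antisense gene *Hoxb3os* on the opposite strand, and of those of *Hoxb2* 27.3%. Whether reads were counted by strand is not given in the sources used here, so reads of *Hoxb3* and *Hoxb3os* cannot be told apart.

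The 250 bases before the annotated start are shown for *Hoxb8*, the *Hoxb* gene with the lowest p between the ages, for *Hoxb4*, the other tested *Hoxb* gene with a start in the table, and for *Hoxa9*. They come from RefSeq on GRCm38.p6, where 26 of the 47 genes matched by symbol, and lie at chr11:96281655-96281904 (plus strand), chr11:96318017-96318266 (plus strand) and chr6:52227371-52227620 (minus strand).
Hoxb8: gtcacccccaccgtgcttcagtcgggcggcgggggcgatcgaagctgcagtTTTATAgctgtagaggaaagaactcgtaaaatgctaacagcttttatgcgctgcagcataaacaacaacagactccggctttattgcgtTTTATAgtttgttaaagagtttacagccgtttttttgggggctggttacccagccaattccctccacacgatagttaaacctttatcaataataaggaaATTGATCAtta
Hoxb4: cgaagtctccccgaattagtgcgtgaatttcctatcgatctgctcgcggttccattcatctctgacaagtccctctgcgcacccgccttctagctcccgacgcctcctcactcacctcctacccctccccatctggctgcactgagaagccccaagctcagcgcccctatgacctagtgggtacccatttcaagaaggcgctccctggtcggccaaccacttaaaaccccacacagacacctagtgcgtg
Hoxa9: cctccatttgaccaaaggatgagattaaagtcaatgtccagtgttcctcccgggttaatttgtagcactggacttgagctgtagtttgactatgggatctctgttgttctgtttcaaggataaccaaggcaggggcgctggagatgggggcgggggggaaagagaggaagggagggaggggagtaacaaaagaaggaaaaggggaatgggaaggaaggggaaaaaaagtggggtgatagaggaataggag
Capitals mark matches, on either strand, to TATAAA, to TGATNNAT (the site of a Pbx and Hox pair) or to TGACAG (the Meis site), and no matches overlap. TATAAA was found in 12.4% of all 32851 windows, TGATNNAT in 7.68% and TGACAG in 15.9%. *Hoxb8* held TATAAA at 199 and 110 bases before the start and TGATNNAT at 11 bases before it, each printed in its reverse complement, and neither of the other windows held any of the 3. Among the 28 windows of the genes studied here, 4 held TGATNNAT, 2 held TGACAG and 4 held TATAAA.

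Depth, taken here as the reads recovered from the values over the genes measured, differed between the libraries. It was 2049091 to 5118507 reads per young mouse and 861047 to 5004774 per old mouse. It went with the letter (861047 to 3106243 in A, 3233516 to 5118507 in B). The study states a larger number of reads sequenced. A count of 3 reads was worth 0.583 to 3.69 normalized read counts. All 10 stem cell markers checked were present in every mouse, with a summed level from 1880 to 6560. Old mice 5 and 7, with letter A, had the lowest sums (1880 and 2630), and old mouse 6 had the highest summed neutrophil and monocyte markers (1760, against 56.6 to 686 in the other mice). The 3 measured progenitor genes that the gate should lower, *Cd34*, *Flt3* and *Cd48*, summed to 167 to 293 in young and 98.0 to 139 in old mice, so these ranges did not overlap. Each gene alone did overlap: *Cd34* read 99.5 to 224 in young and 69.4 to 104 in old mice, and *Flt3* 42.6 to 74.3 and 14.2 to 46.6. *Cd48*, the only 1 of the 3 whose protein the gate sorts on, read 5.1 to 9.99 and 0.583 to 11.8. Summed megakaryocyte markers ran from 343 to 574 in young and 385 to 902 in old mice, erythroid from 94.2 to 214 and 61.5 to 638, and endothelial from 88.4 to 145 and 79.2 to 161. Among the megakaryocyte markers, *Vwf* averaged 285 in young and 501 in old mice, and *Pf4* went the other way (41.0 and 14.6). *Itga2b* (107 and 117) and *Gp9* (19.0 and 25.4) differed by less. Stromal markers went with the letter (105 to 259 in A, 24.9 to 119 in B). The summed stem cell markers ran from 1880 to 4930 in A and from 4600 to 6560 in B.

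Which of the genes were read out in these cells was asked first, on the level per kb of exon, the normalized read count divided by the length of all annotated exons. *Meis1*, a cofactor needed to maintain stem cells, stood at 65.1 ± 21.9 per kb (SD, n = 12) and was above every other gene of the set in its mean. It lay above *Hoxa5*, the next gene at 31.5 ± 10.2, in 12 of 12 mice, though 18.3% of its exon bases are shared with *Gm37818* or *Gm16140*. *Hoxa7* stood at 23.4 ± 7.72 and *Pbx2* at 20.3 ± 4.59. The spread between mice did not fully separate these neighbours, since *Hoxa7* was above *Pbx2* in 10 of 12 mice. From *Hoxa6* (17.5 ± 10.3) through *Pbx3* (14.2 ± 5.19), *Hoxa10* (13.9 ± 1.75), *Hoxb6* (12.1 ± 8) and *Hoxa9* (12 ± 4.09) to *Hoxb5* (11.4 ± 4.44), each gene was above the next in only 6 to 8 of 12 mice. With the longest annotated transcript in place of all exons, 9 of the 10 highest genes stayed among the 10 highest, and *Hoxa7* moved above *Hoxa5*.

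**Figure D1:**
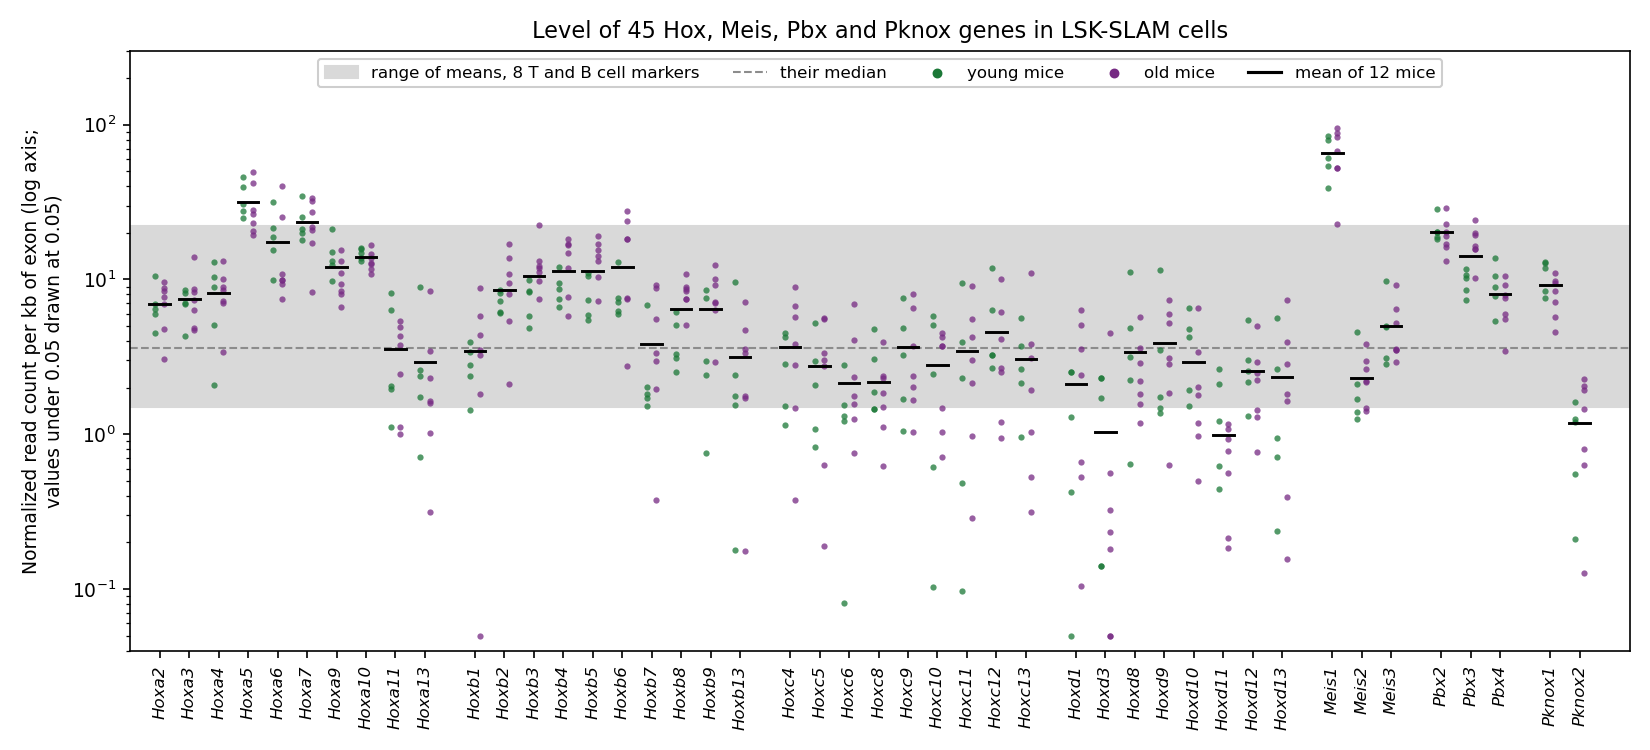
Level per kb of exon of 45 of the 47 genes (log axis), with 1 point per young or old mouse, black lines for means over 12 mice, a grey band for the range of mean levels of 8 T cell and B cell markers (1.5 to 22.2) and a dashed line for their median (3.61), values under 0.05 being drawn at 0.05. *Meis1* stands at 65.1, and the *Hoxc* and *Hoxd* genes lie between 0.995 and 4.59.

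The *Hoxc* and *Hoxd* clusters stayed at the level of genes that the gate should lack. The highest *Hoxc* gene, *Hoxc12*, stood at 4.59 ± 3.42 per kb and the highest *Hoxd* gene, *Hoxd9*, at 3.87 ± 3.15. The 8 measured T cell and B cell markers had means from 1.5 to 22.2 per kb with a median of 3.61, and all but *Cd79b* (22.2) lay at 4.31 or below. The median over genes was 3.07 in *Hoxc* and 2.46 in *Hoxd*, against 8.15 in *Hoxa* and 7.52 in *Hoxb*. In single mice with letter A the median *Hoxc* gene stood at 2.75 to 6.50 per kb and the median lymphocyte marker at 3.12 to 8.63. In mice with letter B these ranges were 0.713 to 3.26 and 0.660 to 4.50. The median *Hoxd* gene stood at 1.62 to 5.67 in A and 0.411 to 2.02 in B.

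*Hoxc12* read 6.53, 3.37, 3.34, 2.75 and 12.3 normalized read counts in the young mice, and 0.972 to 10.3 with a median of 2.78 in the old. *Hoxd9* read 3.73, 24.5, 3.14, 7.46 and 2.94 in the young mice, and 1.36 to 15.8 with a median of 6.61 in the old. Young and old values overlapped for both genes. Within the other clusters, *Hoxa11*, *Hoxa13*, *Hoxb1*, *Hoxb7* and *Hoxb13* were as low (2.93 to 3.85 per kb), and the levels of 5 per kb or more lay at positions 2 to 10. Of the 47 genes, 44 had at least 1 read in every mouse, and *Hoxb1*, *Hoxd1* and *Hoxd3* were at 0 reads in 1 mouse each.

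Between paralogues, the mean per kb of all exons was higher in *Hoxb* at positions 2 to 4 and in *Hoxa* at positions 5 to 7 and 9. *Hoxb3* stood above *Hoxa3* per kb in 11 of 12 mice, with means of 10.5 and 7.43, and *Hoxb4* above *Hoxa4* in 8 of 12, with means of 11.4 and 8.15. The order at position 3 rests on the length used, since mean normalized read counts were nearly equal (44.6 for *Hoxb3*, 44.7 for *Hoxa3*). All exons span 4251 bases in *Hoxb3* and 6014 in *Hoxa3*. The longest annotated transcripts span 3190 and 2591 bases, and with these lengths *Hoxa3* is the higher of the pair. *Hoxa5* was above *Hoxb5* in all 12 mice (31.5 and 11.4). *Hoxb7* exceeded *Hoxa7* in 1 mouse (3.85 and 23.4), and *Hoxb9* exceeded *Hoxa9* in 2, both of them old (6.46 and 12). At position 4 the order differed in count between the ages, with *Hoxb4* above *Hoxa4* in 2 of 5 young and 6 of 7 old mice. That difference was not tested.

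**Figure D2:**
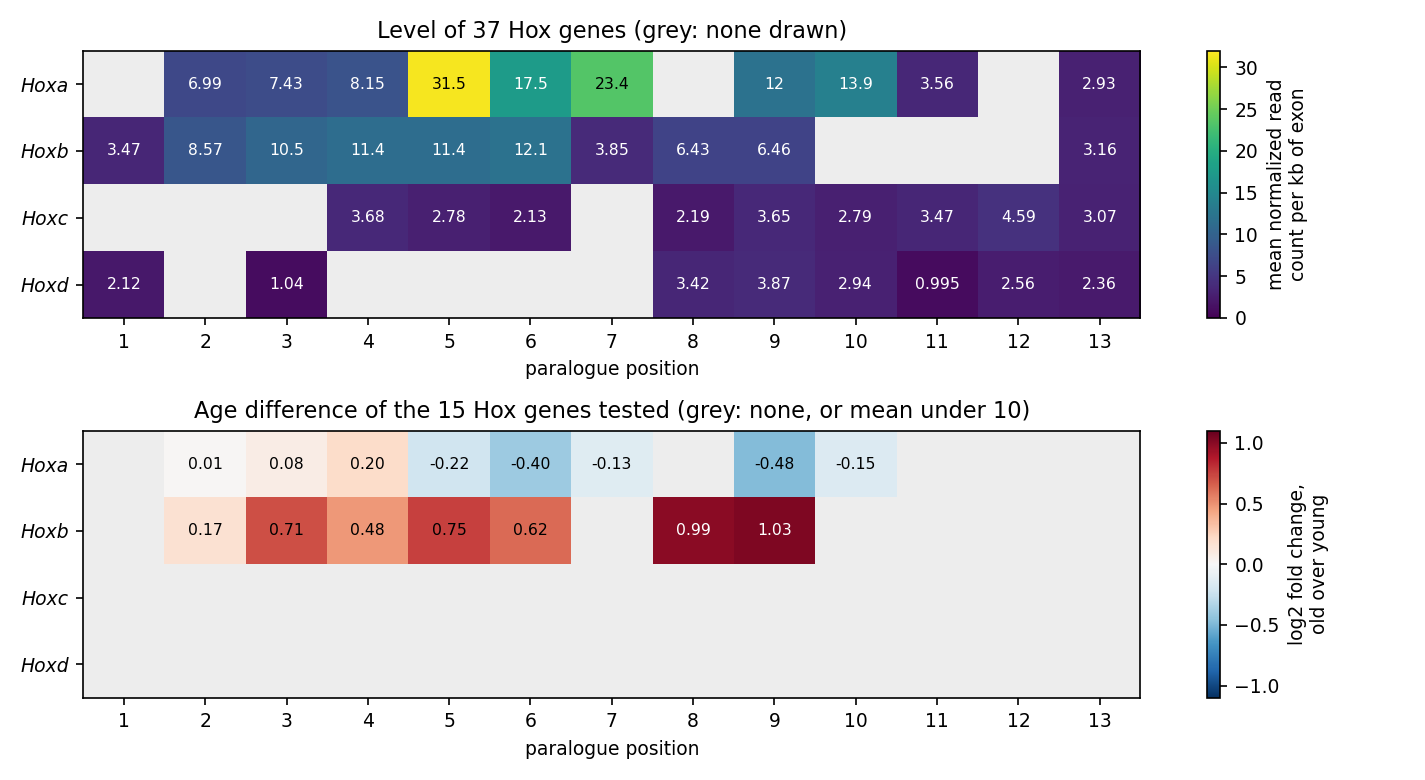
Paralogue position across and cluster down, with the mean level per kb of exon of 37 Hox genes (top) and the log2 fold change of old over young of the 15 Hox genes tested (bottom). Levels above 5 per kb lie at positions 2 to 10 of *Hoxa* and *Hoxb*, and each of the 7 *Hoxb* fold changes is above 0, from 0.17 to 1.03.

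Whether these genes differ between young and old stem cells was tested with limma on log2(value + 1) over the 12354 genes whose mean reached 10, and fold changes are on that scale, which understates the change of low genes. Of the 47 genes, 24 passed the minimum: 8 *Hoxa*, 7 *Hoxb*, and all *Meis*, *Pbx* and *Pknox* genes. *Pknox2* (mean 12.2) and *Hoxa2* (12.4) were just inside it, and *Hoxc4* (9.45) and *Hoxd8* (9.38) just outside. Without the minimum, 0 of the other 23 genes was called by limma and 0 had an unadjusted p under 0.05. Among the 18275 genes in that fit, 14 were called and 603 had such an unadjusted p. Of the 23 log2 fold changes, 12 lay above 0. None of the 24 was called at an adjusted p under 0.05 (limma, Benjamini-Hochberg), where 0.105% of all genes tested were called (13 genes, 12 of them higher in old, and 3 to 32 genes without each mouse in turn). At an unadjusted p under 0.05, 4 of the 24 passed, all higher in old (*Pbx3*, *Hoxb8*, *Hoxb3* and *Hoxb5*), beside 3.95% of all genes tested. On reads recovered from the values, edgeR's quasi-likelihood test called 0 of the 24 (0.146% of all genes), its likelihood-ratio test called *Pbx3* (0.332%) and DESeq2 called *Pbx3* (0.633%). The median log2 fold change was 0.13 over the 24 and -0.02 over all genes tested, and 14 of the 24 lay above 0, against 47.7% of all genes. In bulk samples such as these, fewer cells of a type and less RNA per cell cannot be told apart.

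Of the 4 genes with an unadjusted p under 0.05, 3 lie in the *Hoxb* cluster. Summed over its 10 genes, *Hoxb* read 165, 183, 165, 132 and 145 normalized read counts in the young mice, and 212 to 332 with a median of 241 in the old. Every old mouse was above every young mouse. Young mice averaged 158 ± 19.8 (SD, n = 5) and old mice 254 ± 45.6 (SD, n = 7), a ratio of 1.61. Within letter A the young mice read at most 183 and the old at least 212, and within letter B at most 165 and at least 241. Of single genes tested, 0.461% showed no overlap between the ages, and none of the 24 did. The sum was made after the values of the genes were known, so it has no test.

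The *Hoxa* sum did not follow. It was 367 ± 34.2 in young and 334 ± 70.6 in old mice, with the old range (278 to 469) enclosing the young (313 to 401). The log2 ratio of old over young was -0.16 over all mice, -0.36 within letter A and 0.10 within letter B, so its sign depended on the letter. *Hoxc* was 59.3 ± 34.2 in young and 65.4 ± 38.5 in old, and *Hoxd* 53.8 ± 35.2 and 43.6 ± 29.4, with wide overlap. Set against *Hoxa* in the same mouse, the log2 ratio of *Hoxb* over *Hoxa* was -1.61 to -0.97 in young and -0.56 to 0.08 in old mice. Its mean differed by 0.83, by 0.79 within letter A and by 0.81 within letter B.

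Part of the *Hoxb* and *Hoxa* sums comes from exons that face an antisense gene. Over the genes that share no exon base with the opposite strand, 7 in *Hoxb* and 6 in *Hoxa*, *Hoxb* was 78.3 ± 27.6 in young and 129 ± 25.0 in old mice. The ranges then overlapped, 54.2 to 124 in young and 106 to 172 in old, and the log2 ratio of old over young was 0.76. The log2 ratio to *Hoxa* over these genes was -2.42 to -0.68 in young and -1.23 to -0.01 in old mice. The summed progenitor genes given above also separated the ages. The summed megakaryocyte markers reached higher in old mice, with *Vwf* higher and *Pf4* lower. The part of either sum in the *Hoxb* difference was not tested.

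**Figure D3:**
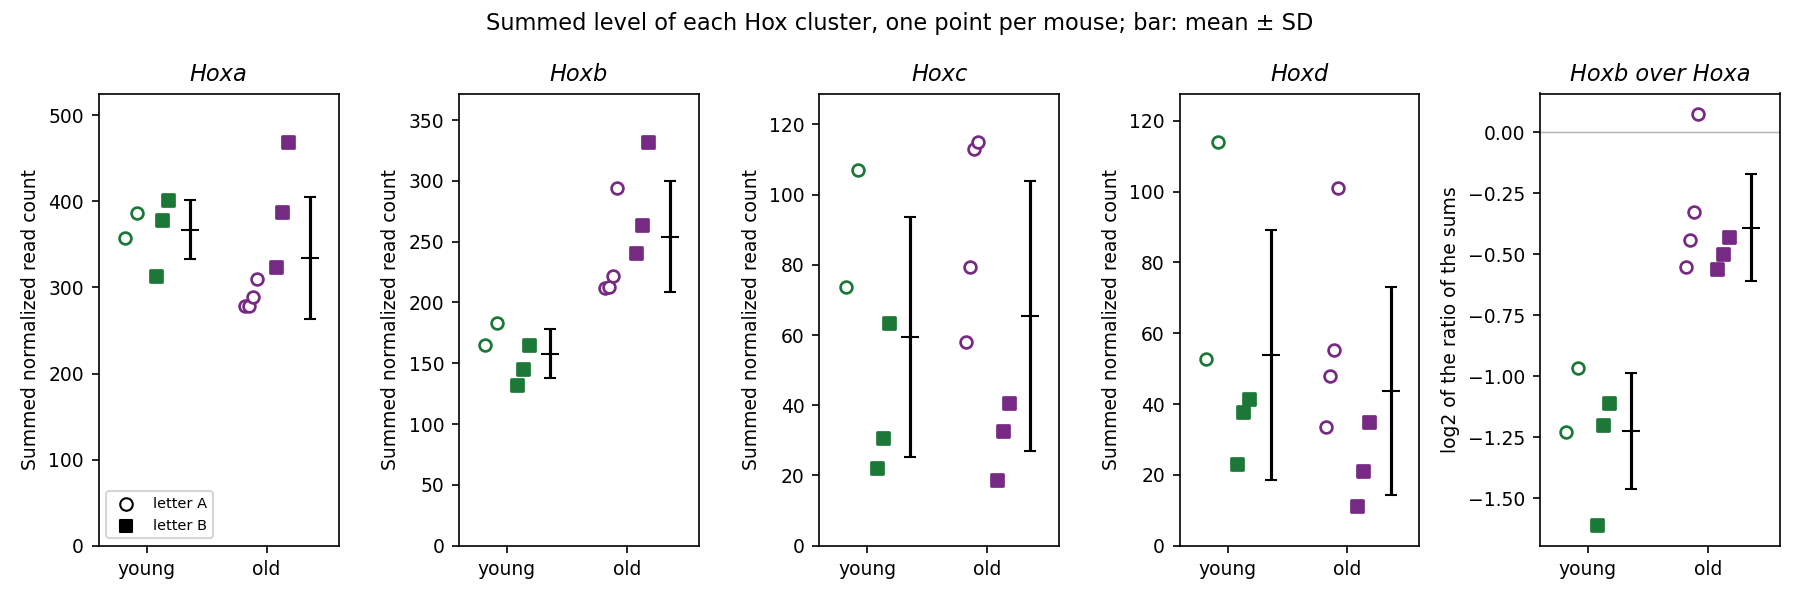
Summed normalized read count of each Hox cluster and, at right, the log2 ratio of the *Hoxb* to the *Hoxa* sum, with 1 point per mouse (open circles letter A, filled squares letter B) and bars for the mean ± SD of 5 young and 7 old mice. The old *Hoxb* sums (212 to 332) all lie above the young (132 to 183), while *Hoxa*, *Hoxc* and *Hoxd* overlap.

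All 7 *Hoxb* genes tested had a log2 fold change above 0, from 0.17 (*Hoxb2*) to 1.03 (*Hoxb9*), with a median of 0.71, and none passed the adjusted threshold. *Hoxb8*, a factor whose forced expression keeps myeloid progenitors growing, read 13.4, 16.3, 6.67, 8.63 and 8.23 in the young mice and 13.4 to 28.4 with a median of 22.1 in the old. In total, 6 of the 7 old mice were above every young mouse. The log2 fold change was 0.99 ± 0.33 (SE, adjusted p = 0.78 by limma), and its exact permutation p over the 792 splits of the mice was 0.00505, two-sided and unadjusted. No base of its exons is shared with another gene, and the window before its start is the one shown above.

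*Hoxb5*, used as a marker of long-term stem cells in mouse marrow, read 15.2, 16.3, 30.6, 20.4 and 29.4 in the young mice and 20.3 to 52.9 with a median of 39.5 in the old. In total, 5 of the old mice were above every young mouse. The log2 fold change was 0.75 ± 0.28 (SE, adjusted p = 0.904 by limma), with an exact permutation p of 0.0303, and 3.6% of its exon bases are shared with the antisense gene *Hoxb5os*. *Hoxb3*, the neighbour of *Hoxb4*, read 42.3, 20.7, 35.5, 35.9 and 24.7 in the young mice and 32 to 96.1 with a median of 50.5 in the old, and 5 old mice were above every young mouse. Its log2 fold change was 0.71 ± 0.26 (SE, adjusted p = 0.904 by limma) with an exact permutation p of 0.0177, and its reads cannot be told apart from those of *Hoxb3os*.

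*Hoxb9*, the most posterior *Hoxb* gene that passed, read 19.6, 22.1, 7.65, 1.96 and 6.17 in the young mice and 7.58 to 32.1 with a median of 18.4 in the old. The young mice separated by letter, with 19.6 and 22.1 in A and at most 7.65 in B, and only 3 old mice were above every young mouse. Its log2 fold change of 1.03 ± 0.51 (SE, adjusted p = 1 by limma) became 0.80 ± 0.39 with the letter as a covariate. *Hoxb6*, the *Hoxb* gene with the highest level per kb, read 14, 25.5, 11.8, 12.2 and 15 in the young mice and 5.42 to 54.5 with a median of 35.6 in the old. The old range enclosed the young, and the log2 fold change was 0.62 ± 0.47 (SE, adjusted p = 1 by limma). *Hoxb4*, whose forced expression expands stem cells, had 0.48 ± 0.30, and *Hoxb2* had 0.17 ± 0.39. The exact permutation p, two-sided and unadjusted, was 0.101 for *Hoxb9*, 0.268 for *Hoxb6*, 0.144 for *Hoxb4* and 0.712 for *Hoxb2*.

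The *Hoxa* genes tested lay between -0.48 (*Hoxa9*) and 0.20 (*Hoxa4*), 3 above and 5 below 0, with a median of -0.14. Their direction depended on the letter. Within letter A 0 of the 8 lay above 0 (median -0.42, 46.8% of all genes above 0). Within letter B 5 of the 8 did (median 0.17, 45.3% of all genes). *Hoxa9*, which supports stem cell repopulation and drives leukaemia with *Meis1*, read 68.7, 54.3, 84.2, 119 and 73.2 in the young mice and 36.9 to 86.9 with a median of 52.1 in the old. The 4 old mice below every young mouse were the 4 with letter A. The log2 fold change was -0.48 ± 0.24 (SE, adjusted p = 1 by limma) with an exact permutation p of 0.0884, and -0.37 ± 0.19 with the letter as a covariate. *Hoxa5*, the *Hoxa* gene with the highest level per kb, read 74.0, 46.6, 57.5, 86.3 and 52.0 in the young mice and 36.2 to 92.9 with a median of 49.6 in the old. Its log2 fold change was -0.22 ± 0.25 (SE, adjusted p = 1 by limma), smaller than its error, and was 0.10 within letter B. *Hoxa10*, another *Hoxa* gene tied to stem cell growth, was 48.0 ± 4.03 in young and 43.4 ± 6.27 in old mice, with a log2 fold change of -0.15 ± 0.18.

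**Figure D4:**
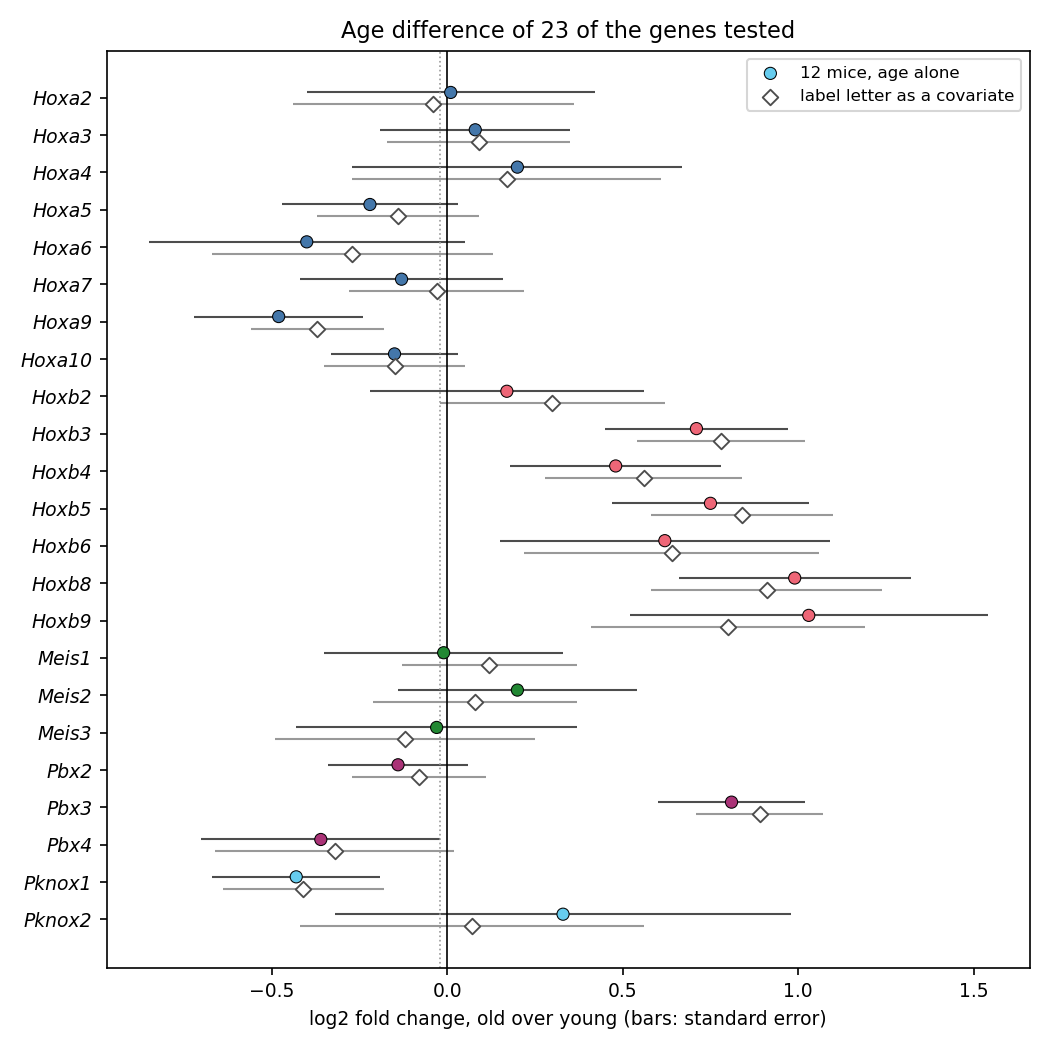
Log2 fold change of old over young for 23 of the 24 genes tested, with standard errors as bars; filled circles (coloured by family) are from age alone and open diamonds from the fit with the label letter as a covariate, and the dotted line is the median of all genes (-0.02). The *Hoxb* genes and *Pbx3* lie to the right, *Pbx3* at 0.81 and 0.89.

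At each of the 6 positions where both paralogues were tested, the fold change of the *Hoxb* gene was above that of the *Hoxa* gene. The log2 ratio within a mouse of *Hoxb5* over *Hoxa5* averaged -1.48 ± 0.64 in the 5 young mice (SD) and -0.51 ± 0.56 in the 7 old mice, and 6 old mice were above every young mouse. For *Hoxb3* over *Hoxa3* it was -0.41 ± 0.46 and 0.22 ± 0.35, with 5 old mice above every young mouse. For *Hoxb9* over *Hoxa9* it was -3.01 ± 1.6 and -1.5 ± 1.01, with 3. The young and old ranges overlapped at all 6 positions. The differences at positions 2 (0.17), 4 (0.28) and 9 (1.5) were below the SD of the young mice or of the old mice, and that at position 6 (1.03), with SDs of 0.97 and 0.98, had 2 old mice above every young mouse. Position 4 also had a difference of 0.89 within letter A and -0.06 within letter B.

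Among the cofactors, *Pbx3* had the lowest limma p of the set, though its exact permutation p was above that of *Hoxb8*. *Pbx3*, a Pbx cofactor known as a partner of *Hoxa9* in leukaemia, read 45.1, 52.4, 71.0, 62.6 and 64.9 in the young mice and 62.4 to 147 with a median of 101 in the old. In total, 6 of the 7 old mice were above every young mouse, and old mouse 5, at 62.4, lay within the young range. Young mice averaged 59.2 ± 10.4 (SD, n = 5) and old mice 106 ± 26.5 (SD, n = 7), and the exact permutation p was 0.0101. The log2 fold change was 0.81 ± 0.21 (SE, adjusted p = 0.281 by limma), which did not pass. *Pbx3* lies at chr2:34171457-34373142 on the minus strand of GRCm38 and shares no exon base with another gene. The part of the summed progenitor and megakaryocyte markers given above in the difference of *Pbx3* was not tested.

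With the label letter as a covariate, *Pbx3* rose by 0.89 ± 0.18 on the log2 scale (SE, adjusted p = 0.0145 by limma). It was then the only 1 of the 24 called, where 0.299% of all genes were (37 genes), and 6 of the 24 had an unadjusted p under 0.05 beside 5.2% of all genes. Within letter A *Pbx3* was 48.8 ± 5.16 in young and 88.7 ± 17.7 in old mice, and within letter B 66.2 ± 4.36 and 129 ± 15.5, with no overlap in either letter. Within letter B alone it was again called, at an adjusted p of 0.00929 by limma (0.809% of all genes called), and within letter A alone it was not (adjusted p = 1 by limma, 0.00809% of all genes called). Without old mouse 5, the old mouse within the young range, *Pbx3* passed (log2 fold change 0.93, adjusted p = 0.0275 by limma). In that fit 32 of the 12354 genes tested were called. Without any other single mouse it did not pass, with adjusted p from 0.414 to 0.874 by limma. Within letter A, 2 of the 24 had an unadjusted p under 0.05 (2.57% of all genes) and 11 lay above 0 (46.8%). Within letter B, 9 had an unadjusted p under 0.05 (8.05%) and 18 lay above 0 (45.3%). *Pbx3*, *Hoxb5* and *Hoxb8* were higher in old mice with no overlap within A and within B, as were 0.631% of all genes tested.

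**Figure D5:**
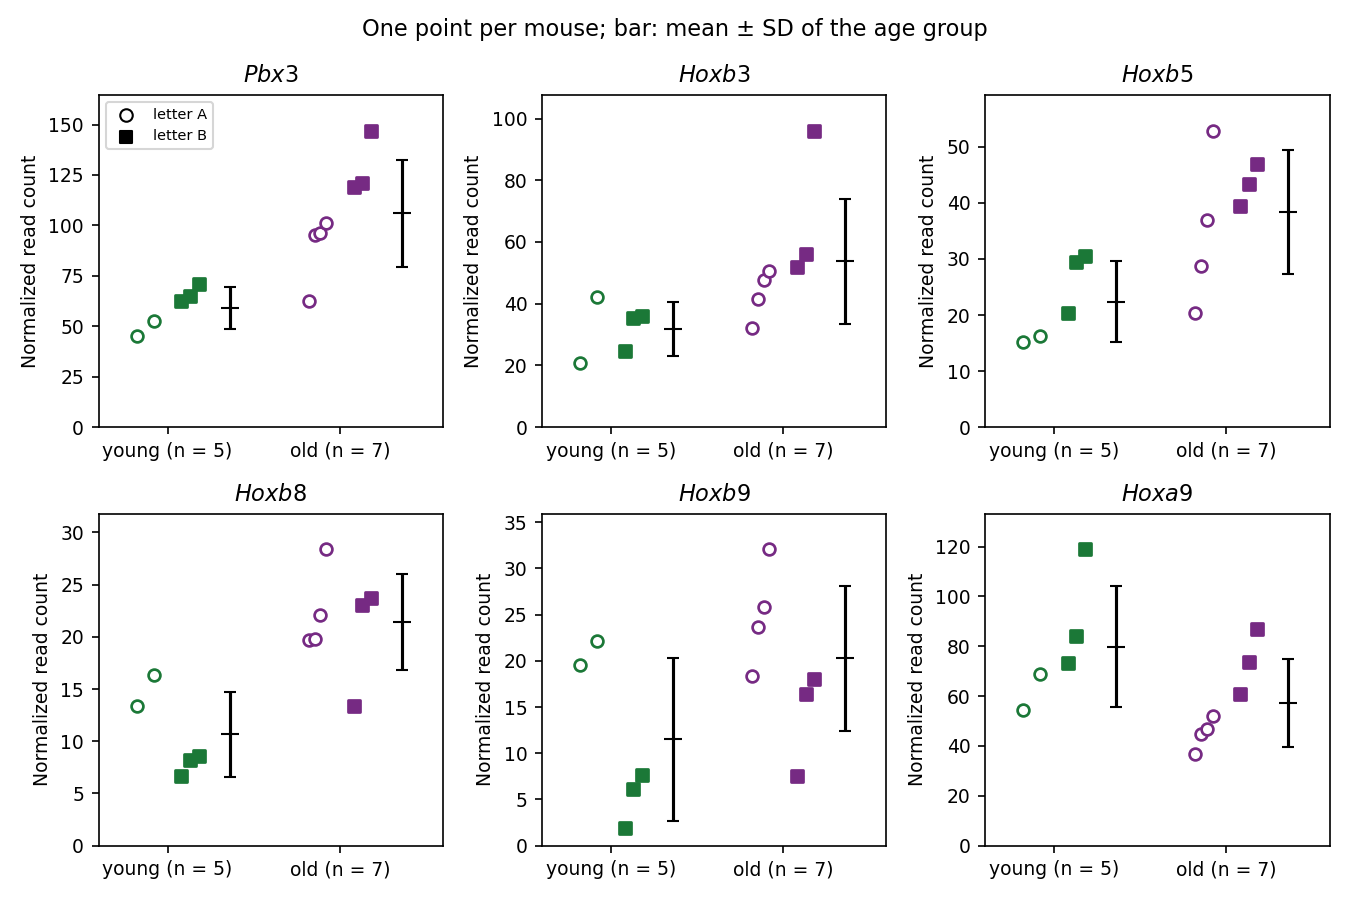
Normalized read count of 6 genes in each mouse (open circles letter A, filled squares letter B), with bars for the mean ± SD of 5 young and 7 old mice. *Pbx3* separates the ages within each letter, while the young values of *Hoxb9* split by letter (19.6 and 22.1 in A, at most 7.65 in B).

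*Pbx2* and *Pbx4* differed by less. *Pbx2* read 68.4, 74.0, 104, 66.9 and 73.7 in the young mice and 48.0 to 105 with a median of 69.6 in the old, a log2 fold change of -0.14 ± 0.20. *Pbx4*, the lowest of the family per kb (8.04 ± 2.80), read 17.4, 19.7, 23.4, 12 and 30.6 in the young mice and 7.68 to 23.2 with a median of 16.7 in the old, a log2 fold change of -0.36 ± 0.34. Young and old values overlapped for both genes.

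*Meis1* read 645, 409, 890, 840 and 566 in the young mice and 241 to 996 with a median of 715 in the old. The old range enclosed the young, and the log2 fold change was -0.01 ± 0.34 (SE, adjusted p = 1 by limma). *Meis2*, a paralogue with little level here (2.31 ± 1.04 per kb), read 16.8, 55.3, 15.1, 20.2 and 25.3 in the young mice and 16.9 to 45.8 with a median of 26.4 in the old, a log2 fold change of 0.20 ± 0.34. *Meis3* read 15.6, 31.2, 9.03, 9.81 and 15.9 in the young mice and 9.33 to 29.2 with a median of 11.3 in the old, a log2 fold change of -0.03 ± 0.40. The old values of *Meis2* and *Meis3* lay within the young range.

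*Pknox1*, a TALE factor that competes with Meis proteins for Pbx, read 52.3, 58.2, 90.3, 88.1 and 82.6 in the young mice and 31.9 to 76.4 with a median of 58.4 in the old. Of the old mice, 3 were below every young mouse. The log2 fold change was -0.43 ± 0.24 (SE, adjusted p = 1 by limma), 0.04 within letter A and -0.80 within letter B. A test of that difference between the letters gave an unadjusted p of 0.0649 by limma. *Pknox2* read 12.4, 13, 2.16, 5.69 and 16.7 in the young mice and 1.31 to 23.4 with a median of 15.1 in the old, a log2 fold change of 0.33 ± 0.65.

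The label letter, which goes with depth, separated more of these genes than age did. With age as a covariate, 6 of the 24 differed between the letters at an adjusted p under 0.05 by limma, beside 36.1% of all genes tested (1301 higher and 3161 lower in B), and without young mouse 1 the 6 became 10. Among the 6, *Meis1* (0.79 ± 0.25), *Hoxa9* (0.64 ± 0.19) and *Pbx3* (0.51 ± 0.18) were higher in B on the log2 scale. *Hoxb9* (-1.30 ± 0.38) and *Pknox2* (-1.51 ± 0.49) were lower in B, as were 25.6% of all genes. With median-ratio scaling, which moved the median of all genes from -0.09 to 0.03, these 6 were called in the same directions and *Hoxa7*, *Hoxb2* and *Hoxb5* joined them as higher in B (2267 higher and 2888 lower over all genes). Without a minimum mean, 16 of the 47 genes were called beside 34.5% of all genes. Among them, 8 of the 17 *Hoxc* and *Hoxd* genes were lower in B beside 27.2% of all genes, and all 17 had a log2 difference below 0, from -2.06 to -0.04, where the median of all genes was -0.44. The age difference itself differed between the letters for none of the 24 (limma: 0 adjusted and 0 at an unadjusted p under 0.05, beside 0.0162% and 3.43% of all genes).

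Genes that act around the Hox factors gave no call with age alone. Of 14 genes known to keep Hox clusters active, 13 were measured and 10 tested. Limma called none (0.105% of all genes), with 1 at an unadjusted p under 0.05 (*Brpf1*), beside 3.95% of all genes. Of the 10, 8 had a log2 fold change below 0, with a median of -0.26 against -0.02 over all genes. With the letter as a covariate, 0 had an unadjusted p under 0.05 (5.2% of all genes), 6 lay below 0 and the median was -0.14 against -0.05. All 10 had a log2 difference above 0 for letter B over A, where the median of all genes was -0.09. The same held for all 10 stem cell markers of the gate check. The largest log2 fold changes with age alone were at *Psip1* (-0.44 ± 0.25), *Brpf1* (-0.43 ± 0.20) and *Men1* (-0.34 ± 0.24). *Men1* encodes menin, which tethers the methyltransferase encoded by *Kmt2a* to Hox genes. *Cdx1*, *Cdx2* and *Cdx4*, the caudal factors that switch on Hox genes in the embryo, lay at 2 to 3.44 per kb, near the lymphocyte markers.

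Of 21 genes tied to HOXA9 and MEIS1 in the literature, 18 were measured and 17 tested. With age alone limma called none (0.105% of all genes), with 2 at an unadjusted p under 0.05 (*Cd34* and *Flt3*), beside 3.95% of all genes. Of the 17, 13 had a log2 fold change below 0 and 4 above, with a median of -0.18, where 47.7% of all genes lay above 0. With the letter as a covariate, 10 lay below 0 and the median was -0.03 against -0.05 over all genes. For letter B over A, 16 of the 17 had a log2 difference above 0, as did all 10 stem cell markers. *Cd34*, a surface marker of progenitors, had the largest log2 fold change with age alone, -1.04 ± 0.20 (SE, adjusted p = 0.0544 by limma). It fell by 0.99 with the letter as a covariate (adjusted p = 0.00856 by limma), and read 99.5 to 224 normalized read counts in young and 69.4 to 104 in old mice. *Flt3*, a receptor of multipotent progenitors, had -0.87 ± 0.29 and *Myb* -0.52 ± 0.34. Both *Cd34* and *Flt3* are also among the progenitor genes of the gate check.

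Of the other TALE genes, 8 of 9 were measured and 5 tested. Limma called 0 (0.105% of all genes) and 0 had an unadjusted p under 0.05 (3.95% of all genes). *Irx5* had a log2 fold change of 0.67 ± 0.67, *Irx6* 0.56 ± 0.67 and *Mkx* -0.21 ± 0.58, none larger than its error. Of 16 protein-coding genes that flank the clusters, 12 were measured and 11 tested. Again 0 were called by limma and 0 had an unadjusted p under 0.05, beside the same 0.105% and 3.95% of all genes. The largest differences were at *Evx2* beside *Hoxd* (-0.44 ± 0.70), *Ttll6* beside *Hoxb* (-0.38 ± 0.59) and *Evx1* beside *Hoxa* (0.35 ± 0.63), each within its error. The median of the 11 was -0.12. None of the 15 antisense RNA and microRNA genes listed for the clusters was found by symbol among the genes measured, so they could not be analysed.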

How the data were processed

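RNA had been taken from sorted LSK-SLAM cells of 12 mice, and ribosomal RNA was removed before library preparation. The series labels 24 samples, 2 lanes per mouse, and the deposited table has 1 column per mouse with the lanes combined. The authors deposited normalized read counts, a signal scaled for library size. Their processing notes name the mm10 build, FastQC 0.11.8, STAR 2.5.4b and edgeR 3.24.3; the counting tool, annotation and use of strand are not given in the sources used here. Per the file headers, a table of the authors' own comparison holds log2 fold changes, log2 CPM, a likelihood ratio, p-values and FDR; it was not used.

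Values came out as whole multiples of 1 read in 100% of cases (tolerance 0.01), giving 861047 to 5118507 reads per mouse over the genes measured. Since values were normalized, the test was limma 3.58.1 (R 4.3.3, trend) on log2(value + 1) for genes with a mean of at least 10, with two-sided Benjamini-Hochberg adjusted p at 0.05. On the recovered reads edgeR 4.0.16 called 18 genes (quasi-likelihood) or 41 (likelihood ratio) and DESeq2 1.42.0 called 57. Single genes also had an exact permutation test over the 792 splits of the mice, whose smallest p is 0.00126. P-values measure the spread between mice, and the depth of the shallowest libraries limits genes of low level.

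The genes and lists were chosen with earlier results of these data known. Named with values per mouse were genes called by the test, the highest gene per kb of each cluster, the Meis, Pbx and Pknox genes tested, and the 5 largest absolute log2 fold changes. *Hoxa9* was added after its values were seen. Of each pathway list, up to 3 genes with the largest log2 fold change were named, and *Cdx1*, *Cdx2* and *Cdx4* were chosen after their values were seen. Alternatives were the label letter as a covariate or each letter alone, other tools, scaling, pseudocounts and minimum means, mice left out in turn, and a block over replicate numbers. Sums without genes that face an antisense gene were added after seeing the data. Exon lengths and overlaps came from GENCODE vM21, which held 18745 of the 18762 gene IDs. Analyses ran in Python 3.11.15. The fit was tested on simulated data. Counts and sums cover all 47 genes, but some items are not reported here by name.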

Additional observations from a re-analysis of the deposited data

Results flagged for a closer look

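Of the 62 groups of young or old values looked at (1 gene in 1 age), 5 held a mouse that stood apart from the others by Dixon's test, where chance gives about 3.1, or 1 in 20 groups. Old mouse 2 was high for *Hoxa3*, at 83.5 normalized read counts against 28.3 to 51.9 in the other old mice. The same mouse was high for *Hoxb3*, at 96.1 against 32 to 56.1. Young mouse 2 was high for *Hoxb6*, at 25.5 against 11.8 to 15 in the other young mice, and for *Meis2*, at 55.3 against 15.1 to 25.3. Young mouse 3 was high for *Pbx2*, at 104 against 66.9 to 74.0.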

How the results depend on the processing

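No gene of the set was called with age alone, and *Pbx3* was the 1 gene called by DESeq2, by the likelihood-ratio test, with the letter as a covariate, within letter B and without old replicate 5; without each mouse in turn 0 to 1 were called. Over its alternatives the adjusted p of *Pbx3* ran from 0.00929 to 1. The genes called in all, 13 with age alone, came to 57 by DESeq2, 41 by the likelihood-ratio test, 37 with the letter as a covariate, 1 within letter A, 100 within letter B, 2 without the trend, 8 in replicates 1 to 5 and 3 to 32 without each mouse (3 without old replicate 1, 2 or 3 or young replicate 3 or 4, 4 without young replicate 5, 6 without young replicate 1, 7 without old replicate 6 and 32 without old replicate 5). Genes of the set at an unadjusted p under 0.05, 4 with age alone, were 2 within letter A, 9 within letter B and 4 to 6 without each mouse. Those that differed between the letters, 6, were 17 at a minimum mean of 5, 16 with no minimum, where more genes were tested, and 5 to 10 without each mouse, with 10 without young replicate 1.

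The median log2 fold change of the set, 0.13, was -0.10 within letter A and 0.36 within letter B, and 0.02 to 0.17 without each mouse. The log2 ratio of the sums was 0.10 for *Hoxa* within letter B, 0.42 and 0.92 for *Hoxb* within A and B, and 0.19 and -0.77 for *Pknox*. The 7 *Hoxb* genes tested stayed above 0 in every alternative except letter A alone, with 6 of 7, and the 5 tested at a minimum mean of 20 were all above 0.

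Some fold changes changed sign. *Hoxb2* was -0.23 within letter A. Within letter A, *Hoxa2* was -0.34, *Hoxa3* -0.39 and *Hoxa4* -0.61. Within letter B, *Hoxa5* was 0.10 and *Hoxa7* 0.41. *Meis1* was 0.06 by each count tool, 0.32 within letter B, 0.12 with the letter as a covariate and -0.18 to 0.22 without each mouse. *Meis3* was 0.19 within letter B and -0.19 to 0.23 without each mouse. *Pbx2* was 0.02 and *Pknox2* was -0.40 within letter B, *Pknox1* was 0.04 within letter A, and *Pknox2* was -0.06 to 0.72 without each mouse. The cause was not tested.

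Whether equal replicate numbers pair the mice could not be decided. The deviations of the 5 pairs correlated from -0.559 to 0.615, with a mean of 0.136 against -0.023 for other numbers. In this check 4 of 10 mice were most like the mouse with their number. The letter enters it, since correlations averaged 0.348 within a letter and -0.329 between letters. The young and old mice numbered 2 carry different letters, as do those numbered 5. With a replicate block over replicates 1 to 5, 19 genes and 0 of the set were called, against 8 and 0 in the same mice without the block. Both gave 0.07 for *Meis1*, 0.01 for *Meis3* and 0.02 for *Pbx2*, and the block gave 0.83 for *Pbx3* (adjusted p = 0.544 by limma).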
